A study of Homo sapiens with 4 samples.

Results

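The RUNX, GFI1 and MYB regulators are 10 genes chosen by symbol, and each matched a single one of the 58037 Ensembl genes in the count table. They comprise the transcription factors RUNX1, RUNX2 and RUNX3 with their partner CBFB, the corepressors CBFA2T2, CBFA2T3 and RUNX1T1, the repressors GFI1 and GFI1B, and the activator MYB. RNA was sequenced from OCI-AML3, an established human AML cell line that harbors a heterozygous NPM1 mutation together with mutant DNMT3A and NRAS, which both groups share. Cells were harvested 3 days (72 hours) after transfection with a negative control guide, labelled sgNeg (2 libraries), or with sgNPM1A, a CRISPR-Cas9 guide directed at the mutant NPM1 allele (2 libraries). All libraries come from a single line, the labels and the study's methods give no cloning step after transfection, and each gene's counts sum its alleles and any edited and unedited cells. In such bulk RNA, fewer cells of a type and less RNA per cell cannot be told apart.

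RUNX proteins bind DNA through the Runt domain, and CBFB, which does not bind DNA itself, joins them and strengthens that binding. The ETO family, to which RUNX1T1, CBFA2T2 and CBFA2T3 belong, does not bind DNA by itself but brings NCOR-type corepressors and histone deacetylases to transcription factors; RUNX1T1 is the ETO gene that is fused to RUNX1 in a translocation of AML. GFI1 and its relative GFI1B are zinc finger repressors that recruit the demethylase LSD1 with CoREST, GFI1 mainly in granulocytic and GFI1B in erythroid and megakaryocytic cells. MYB activates genes of proliferating hematopoietic progenitors through the acetyltransferases CBP and p300.

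The letters that RUNX proteins recognize, TGTGGT, were searched on both strands of the RefSeq promoter windows (GRCh38.p14, 250 bases before to 50 after an annotated start) that 8 of the 10 genes have, all but CBFB and RUNX1T1. Of the 13 windows of these genes 3 held the letters, and 13.1% of all 35116 windows did. They were the distal windows of RUNX2 and RUNX3 and a window of GFI1. Any relation of these matches to the mRNA levels was not tested. RUNX1, CBFA2T2 and CBFA2T3 each had a single window, inside the gene, and the outermost starts of these genes were not searched. The 3 windows are printed with the letters or their reverse complement in capitals, and base 251 is the annotated start.
RUNX2, chr6:45328080-45328379, plus strand: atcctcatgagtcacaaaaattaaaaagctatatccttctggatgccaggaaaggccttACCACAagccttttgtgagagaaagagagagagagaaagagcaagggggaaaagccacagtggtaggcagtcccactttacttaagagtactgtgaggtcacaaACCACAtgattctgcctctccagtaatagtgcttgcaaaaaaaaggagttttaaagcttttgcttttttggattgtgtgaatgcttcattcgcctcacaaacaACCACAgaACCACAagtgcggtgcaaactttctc
RUNX3, chr1:24964961-24965260, minus strand: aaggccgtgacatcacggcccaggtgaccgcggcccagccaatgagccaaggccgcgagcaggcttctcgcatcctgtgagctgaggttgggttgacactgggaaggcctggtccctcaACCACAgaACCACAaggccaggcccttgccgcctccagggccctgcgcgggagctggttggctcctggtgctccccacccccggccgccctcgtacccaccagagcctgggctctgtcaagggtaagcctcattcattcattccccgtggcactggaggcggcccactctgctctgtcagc
GFI1, chr1:92486050-92486349, minus strand: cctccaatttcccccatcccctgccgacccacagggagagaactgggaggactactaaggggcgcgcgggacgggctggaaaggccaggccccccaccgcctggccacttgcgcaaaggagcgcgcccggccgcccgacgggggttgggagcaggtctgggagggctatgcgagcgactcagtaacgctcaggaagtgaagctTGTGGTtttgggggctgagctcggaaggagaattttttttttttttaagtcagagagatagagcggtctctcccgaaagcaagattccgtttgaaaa
The RUNX2 window has 4 matches, which begin at bases 60, 164, 267 and 275. The RUNX3 window has 2, at bases 120 and 128, and the GFI1 window has 1, at base 204. RUNX2 and RUNX3 share an unbroken run of 18 bases, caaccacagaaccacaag, which carries a pair of matches in each. It begins at base 265 in RUNX2, after the start, and at base 118 in RUNX3, before the start, and among all windows it occurs in these 2 alone. Letters for GFI1 (AAATCA) stand in 2 of the 13 windows, both of GFI1B, against 13.2% of all windows. Letters for MYB (AACTG) stand in 4 of the 13, against 39.7%, and overlap no RUNX match. These matches are a description of the sequence, and no binding was measured here.

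Counts summed to between 25069484 and 28276391 per library, and 15718 genes passed edgeR's filter on low counts. Levels are given as CPM, the counts of a gene scaled to library size with edgeR's TMM factors. NPM1, the targeted gene, stood at 1319 and 1385 CPM with sgNeg against 1189 and 1132 CPM with sgNPM1A, and both sgNPM1A libraries were lower. Its log2 fold change was -0.22, under the fold threshold, with an adjusted p of 0.0360 in edgeR. That p was 0.156 with same-numbered libraries as a block and 1.19e-05 with the numbers crossed. The crossed block was added after same-numbered libraries were seen to deviate in opposite directions, so its p is no independent check. Both alleles enter these counts. Of 11 myeloid markers 7 were called higher (63.6%, beside 10.5% of all genes tested), and 4 were not called. The summed level of the 11 was 1396 and 1382 CPM with sgNeg and 4088 and 4825 CPM with sgNPM1A. Most of this rise was that of LYZ, from 270.6 and 215.1 CPM with sgNeg to 2643 and 3367 CPM with sgNPM1A. Of 21 markers of T, B, erythroid, megakaryocytic, epithelial and fibroblast cells 18 had at most 16 counts in any library, 6 of them 0 in all, among them CD3D and CD3E of T cells, HBB of erythroid cells and EPCAM and KRT19 of epithelia. Among the exceptions were ITGA2B and the collagen gene COL1A2, of which the latter was called lower with a log2 fold change of -1.33, and the platelet gene PPBP was called higher at 2 and 2 counts against 11 and 16. The summed level of the 21 was 32.1 and 33.4 CPM with sgNeg and 17.0 and 13.7 CPM with sgNPM1A. COL1A2 alone made up 27.46 and 28.57 CPM of it with sgNeg and 12.95 and 9.33 CPM with sgNPM1A. The part of the shift in either sum in the results on the regulators was not tested.

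Compared with sgNeg, the sgNPM1A libraries had lower mRNA of RUNX2 and RUNX3, while RUNX1 and MYB were slightly higher at a size below the fold threshold. A gene was called where edgeR's quasi-likelihood F test gave a Benjamini-Hochberg adjusted p under 0.05 over all genes tested and the log2 fold change was at least 0.32 in size, which is the fold threshold of the study. Of the 10 genes, 8 passed the filter, 2 were called lower and 0 higher. Over all genes tested 20.8% were called, 10.3% lower and 10.5% higher. Without regard to fold, 4 of the 8 had an adjusted p under 0.05 (26.0% of all genes tested), and DESeq2, limma-trend and the unadjusted p with the same fold threshold likewise gave 2 lower and 0 higher. In 7 of the 8 the libraries of the groups did not overlap, which was also so for 63.1% of all genes tested. The median log2 fold change of the 8 was 0.15, and that of all genes tested was 0.00. With 2 libraries a group the smallest two-sided p of an exact permutation test is 0.333, and the calls therefore rely on the dispersion estimated over many genes.

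**Figure D1:**
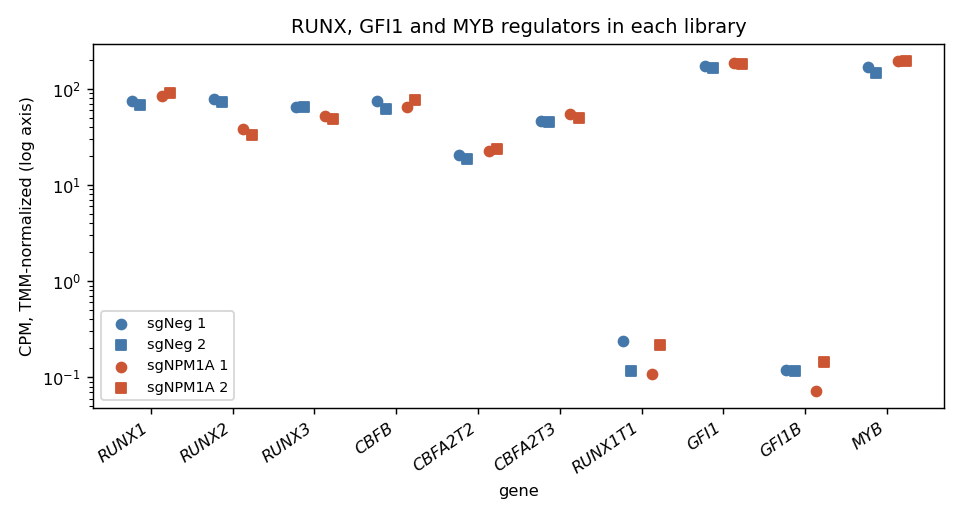
TMM-normalized CPM (log axis) of the 10 genes in the 2 sgNeg and 2 sgNPM1A libraries, a point per library. RUNX2 drops from 79.3 and 73.5 to 38.2 and 33.5 CPM, and RUNX1T1 and GFI1B lie below 0.24 CPM in every library.

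RUNX2, best known as the master regulator of osteoblasts and also expressed in myeloid cells, showed the largest change of the 8 tested genes. It lies on chromosome 6 of GRCh38 from 45328330 to 45551082 (ENSG00000124813). Its level was 79.3 and 73.5 CPM in the sgNeg libraries and 38.2 and 33.5 CPM in the sgNPM1A libraries. Both sgNPM1A libraries were at about the same low level, and the groups did not overlap. The mean went from 76.4 ± 4.10 to 35.9 ± 3.33 CPM (SD, n = 2 libraries per group). RUNX2 fell by 1.09 on the log2 scale, with a standard error of 0.09 and a 95% confidence interval from -1.28 to -0.90 (adjusted p = 5.28e-06, edgeR). Omission of any single library left it between -1.19 and -0.996, and it was called each time. SUPT3H and a long noncoding RNA cross RUNX2 on the opposite strand without sharing an exonic base and were called lower too, and the strand setting of the counts is not given in the sources used here.

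RUNX3, a RUNX factor known from T cell and dendritic cell development, lies on chromosome 1 from 24899511 to 24965138 (ENSG00000020633). It had 65.5 and 65.7 CPM with sgNeg and 53.0 and 49.2 CPM with sgNPM1A. The sgNeg libraries were nearly equal, and both sgNPM1A libraries were below them. RUNX3 fell by 0.36 on the log2 scale (standard error 0.08, 95% confidence interval -0.53 to -0.19, adjusted p = 0.00496, edgeR), a little beyond the fold threshold. Without sgNPM1A replicate 2 the log2 fold change was -0.30 and the adjusted p 0.124, so that the call rests on this library.

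RUNX1, the RUNX factor required for definitive hematopoiesis and often mutated in AML, lies on chromosome 21 from 34787801 to 35049302 (ENSG00000159216). It had 75.6 and 68.5 CPM with sgNeg and 84.9 and 91.8 CPM with sgNPM1A, and the groups did not overlap. The log2 fold change was 0.29 (standard error 0.08, 95% confidence interval 0.12 to 0.47, adjusted p = 0.0179, edgeR), a fold of 1.23 that is under the threshold, and RUNX1 was not called. It passed both thresholds without sgNeg replicate 1 (0.37, adjusted p = 0.0101) and without sgNPM1A replicate 1 (0.35, adjusted p = 0.0419), and without sgNPM1A replicate 2 its adjusted p was 0.239.

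RUNX1 and RUNX2 had fold changes of opposite sign, and the mix of the RUNX genes was followed within each library, where scaling between libraries cancels. For each RUNX2 count there were 0.954 and 0.933 RUNX1 counts in the sgNeg libraries and 2.22 and 2.74 in the sgNPM1A libraries. After division by the exonic length of each gene, RUNX2 made up 34.8% and 33.6% of the 3 genes with sgNeg and 22.3% and 20.5% with sgNPM1A. The share of RUNX1 was 17.4% and 16.5% with sgNeg and 26.1% and 29.5% with sgNPM1A. The mean share thus differed by -12.8 percentage points for RUNX2 and by 10.8 points for RUNX1, with no overlap between the groups (exact permutation test, two-sided p = 0.333 for each, the smallest possible). The share of RUNX3 was 48.9% ± 1.52 and 50.8% ± 1.09 (SD, n = 2 libraries per group), and the sign of its small difference depended on the length used. In raw counts the RUNX2 share was 36.0% (95% Wilson interval 34.7 to 37.2, counting error only) and 35.4% (34.1 to 36.7) with sgNeg, and 21.7% (20.6 to 22.9) and 19.2% (18.1 to 20.3) with sgNPM1A.

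**Figure D2:**
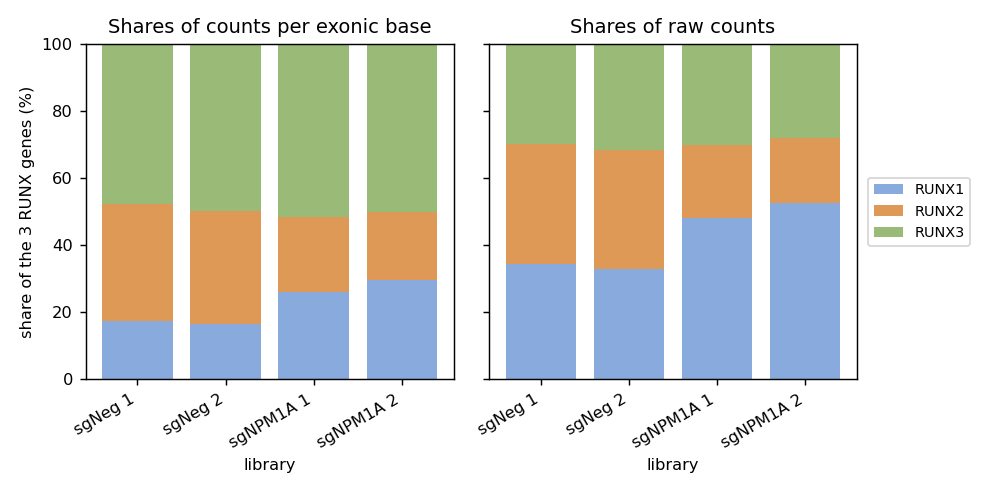
Share (%) of RUNX1, RUNX2 and RUNX3 in the sum of the 3 genes in each library, by counts per exonic base (left) and by raw counts (right). The RUNX2 band narrows from 34.8% and 33.6% to 22.3% and 20.5% on the left, while the RUNX1 band widens.

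The 3 RUNX genes summed to 220.4 and 207.7 CPM with sgNeg and to 176.0 and 174.5 CPM with sgNPM1A. The sum was 18.1% lower on average and did not overlap between the groups (exact permutation test, two-sided p = 0.333), a comparison chosen after the values were seen. CBFB, the partner that all 3 RUNX proteins share, lies on chromosome 16 from 67029149 to 67101058 (ENSG00000067955) and had 75.1 and 61.3 CPM with sgNeg and 65.5 and 76.2 CPM with sgNPM1A. Its libraries overlapped, and it varied more between replicates than between groups. The log2 fold change of CBFB was 0.05 (95% confidence interval -0.17 to 0.28, adjusted p = 0.745, edgeR), and it was below 0 without sgNeg replicate 2 or without sgNPM1A replicate 2. Per exonic kilobase the 3 RUNX genes together stood at 1.72 and 2.03 times CBFB with sgNeg and at 1.48 and 1.22 times CBFB with sgNPM1A (exact permutation test, two-sided p = 0.333).

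Of the ETO family corepressors, CBFA2T3, which works in erythroid and stem cell complexes with TAL1 and LDB1, had 46.7 and 45.1 CPM with sgNeg and 54.5 and 49.8 CPM with sgNPM1A. CBFA2T2, its broadly expressed relative, had 20.5 and 18.8 CPM with sgNeg and 22.8 and 23.7 CPM with sgNPM1A. In both genes the sgNPM1A libraries were above the sgNeg libraries, and neither was called. The log2 fold change was 0.18 for CBFA2T3 (95% confidence interval 0.01 to 0.36, adjusted p = 0.118, edgeR) and 0.24 for CBFA2T2 (0.03 to 0.45, adjusted p = 0.0857, edgeR), and both intervals reach past the fold threshold. CBFA2T3 lies on chromosome 16 from 88874858 to 88977207 (ENSG00000129993) and CBFA2T2 on chromosome 20 from 33490096 to 33650030 (ENSG00000078699). RUNX1T1 (ENSG00000079102) had 6 and 3 counts with sgNeg and 3 and 6 counts with sgNPM1A, below the filter, and a difference was not detectable at this depth.

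GFI1, on chromosome 1 from 92473043 to 92486925 (ENSG00000162676), was among the most abundant of the 10 genes. It had 174.1 and 165.3 CPM with sgNeg and 184.7 and 183.6 CPM with sgNPM1A, the sgNPM1A libraries being slightly higher without overlap. The log2 fold change of GFI1 was 0.12 (standard error 0.06, 95% confidence interval -0.02 to 0.26, adjusted p = 0.212, edgeR), and the interval lies within the fold threshold in both directions. GFI1B (ENSG00000165702) had 3 and 3 counts with sgNeg and 2 and 4 counts with sgNPM1A. It thus stood at about 3 counts, the floor taken as the smallest count told from 0, which is between 0.106 and 0.120 CPM in these libraries and covers counting error only.

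MYB lies on chromosome 6 from 135181308 to 135219172 (ENSG00000118513). It had 169.4 and 148.4 CPM with sgNeg and 193.9 and 198.2 CPM with sgNPM1A. Both sgNPM1A libraries were above both sgNeg libraries, and sgNeg replicate 2 was the lowest. The log2 fold change of MYB was 0.30 (standard error 0.07, 95% confidence interval 0.14 to 0.47, adjusted p = 0.0118, edgeR), again a fold of 1.23, under the threshold. Without sgNeg replicate 1 it was 0.40 and was called (adjusted p = 0.00220), and without sgNPM1A replicate 2 it was 0.29 with an adjusted p of 0.100. In none of these fits was MYB mRNA lower with sgNPM1A.

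**Figure D3:**
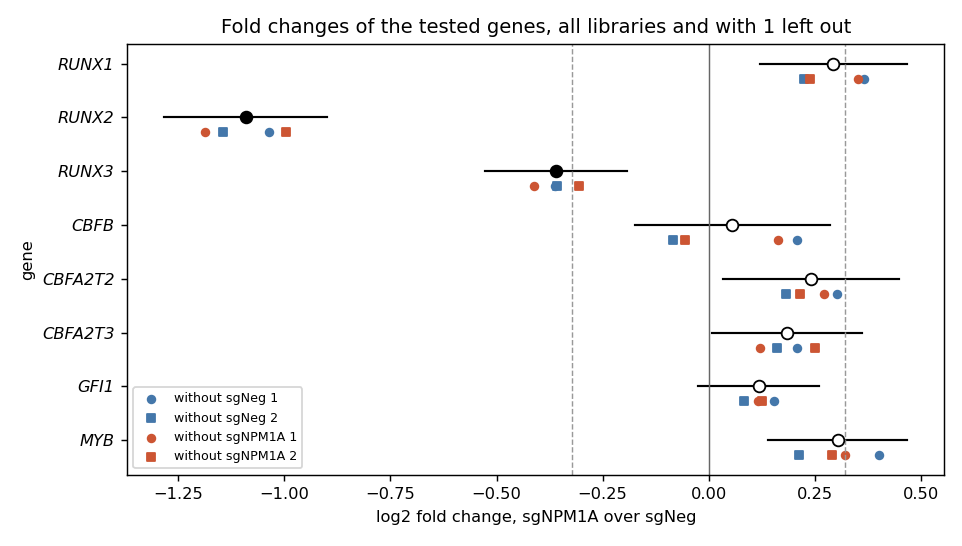
Log2 fold change of sgNPM1A over sgNeg for the 8 tested genes, with all libraries (large circles, filled where called, bars are 95% confidence intervals) and with each library left out (small markers); dashed lines mark the fold threshold of 0.32 on this scale. RUNX2 stands alone at -1.09, RUNX3 lies just beyond the line at -0.36, and RUNX1 and MYB lie just inside it at 0.29 and 0.30.

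Levels of different genes were compared as CPM per kilobase of exonic length. With sgNeg the order was GFI1 (30.1 ± 1.10), MYB (28.9 ± 2.70), CBFB (14.7 ± 2.10), RUNX3 (13.3 ± 0.025), RUNX2 (9.32 ± 0.50), CBFA2T3 (7.69 ± 0.18), RUNX1 (4.63 ± 0.32) and CBFA2T2 (2.08 ± 0.12; SD, n = 2 libraries), with GFI1B and RUNX1T1 below 0.02 in every library but 1 of GFI1B. GFI1 and MYB overlapped in this order, and so did CBFB and RUNX3, while the other neighbours did not. With sgNPM1A the level of RUNX2, 4.38 ± 0.41, was below that of RUNX1, 5.67 ± 0.32, whereas with sgNeg it was above, and neither pair overlapped. By exonic length MYB, at 35.7 ± 0.55, stood above GFI1, at 32.6 ± 0.13, with sgNPM1A. The order depends on the length: with that of the MANE Select transcript RUNX1 had a mean of 12.1 with sgNeg and 14.8 with sgNPM1A, RUNX2 13.8 and 6.47, and RUNX3 15.4 and 12.0. With that length MYB was above GFI1 in both groups, at 43.1 against 37.3 with sgNeg and 53.2 against 40.4 with sgNPM1A. By both lengths RUNX2 was above RUNX1 with sgNeg and below it with sgNPM1A.

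Cofactors were followed with lists drawn from general knowledge, with earlier results of these data known. Of 28 RUNX and ETO cofactors 27 were tested, 3 were called higher and 2 lower (11.1% and 7.41%, beside 10.5% and 10.3% of all genes), with a median log2 fold change of -0.04. Of the 5 genes called 3 code for Groucho-type corepressors that RUNX proteins bind. TLE3 had 133.2 and 116.4 CPM with sgNeg and 62.4 and 59.6 CPM with sgNPM1A and fell by 1.03 (log2, adjusted p = 4.68e-06 in edgeR). TLE2 fell by 0.97 (log2) at a low level and lost its call with DESeq2 and without sgNeg replicate 2 or sgNPM1A replicate 2, while TLE4 rose from 44.8 ± 3.02 to 61.6 ± 2.53 CPM. TBL1X, a subunit of the NCOR complexes, rose from 5.28 ± 0.54 to 11.8 ± 0.57 CPM, and LYL1, a bHLH partner in ETO complexes, from 86.4 ± 3.13 to 148.5 ± 5.24 CPM (SD, n = 2 libraries per group). The number called lower was 1 with DESeq2 and without sgNPM1A replicate 2, where TLE3 was left, and 4 without sgNeg replicate 2. Among the 14 LSD1-CoREST partners of GFI1 and GFI1B, GSE1 rose by 0.37 and AJUBA fell by 0.83 on the log2 scale, and the demethylase KDM1A itself had 114.1 ± 18.5 and 113.7 ± 6.74 CPM. The median of this list was -0.06, and 2 were called higher without sgNeg replicate 1. Of the 12 MYB relatives and cofactors LIN54, a subunit of the MuvB complex that MYBL2 joins, fell from 31.8 ± 6.40 to 20.2 ± 1.78 CPM (edgeR adjusted p = 0.00348). LIN54 was called lower in every fit, and the number called lower was 3 with library size only, without sgNeg replicate 2 and without sgNPM1A replicate 1, and 2 without sgNeg replicate 1. In that list 0 were called higher by edgeR, as by DESeq2, limma-trend and the unadjusted p, and the median was -0.11.

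Among genes known as targets of these factors, in lists drawn in the same way, more were called higher than lower in each of the 3 lists. Over all genes tested 10.5% were called higher and 10.3% lower. The lists share genes with each other or with the myeloid markers, namely MPO, ELANE, SPI1, CSF1R, ITGAM, LYZ and CDKN1A, and the part of the myeloid shift in these counts was not tested. Of 15 RUNX1 target genes 11 were tested, 8 were called higher and 1 lower (72.7% and 9.09%), with a median log2 fold change of 0.59. NFE2, an erythroid and megakaryocytic factor, rose from 19.8 ± 0.43 to 57.5 ± 0.33 CPM and CSF1R, the M-CSF receptor, from 23.6 ± 0.60 to 54.8 ± 3.94 CPM, while the kinase gene PRKCQ fell from 113 and 126 counts to 32 and 38 counts. CSF2 and IL3 had 0 counts in every library. Of the 19 GFI1 and GFI1B target genes, all tested, 9 were called higher and 4 lower (47.4% and 21.1%), with a median of 0.05. Those called lower were HOXA9, MEIS1, CSF1 and ID1, and those called higher included lysozyme, LYZ, from 242.9 ± 39.3 to 3005 ± 512.3 CPM, IRF8, the monocytic factor, from 636.8 to 1107 CPM on average, and ITGAM, which codes for CD11b. Of 14 MYB target genes 12 were tested, 5 were called higher and 0 lower (41.7% and 0.00%), with a median of 0.13. DESeq2 and limma-trend also gave 0 lower. The unadjusted p, library size only, no filter on low counts, the crossed block and the fit without sgNeg replicate 2 each gave 1, IGF1R, a growth factor receptor gene at -0.44 on the log2 scale (edgeR adjusted p = 0.0541). The granule protease gene PRTN3 rose from 436.0 ± 18.5 to 2016 ± 19.8 CPM, and CCNA1, a cyclin of germ cells and AML, from 10 and 6 counts to 136 and 167 counts. FLT3, the receptor tyrosine kinase, rose from 9.98 ± 1.18 to 20.5 ± 0.51 CPM. MYC, at -0.25 on the log2 scale (edgeR adjusted p = 0.0159), and the survival gene BCL2, at 0.17 (edgeR adjusted p = 0.132), were not called.

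**Figure D4:**
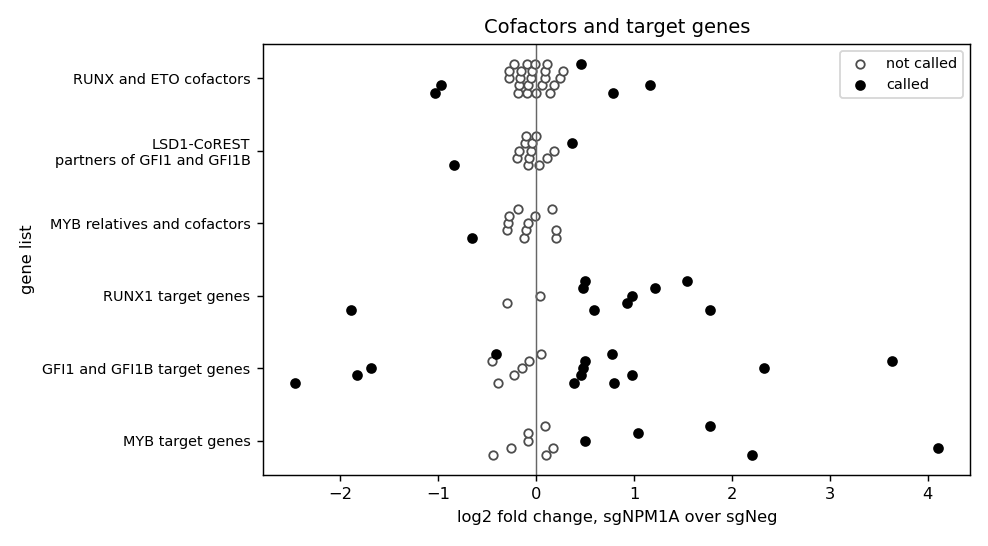
Log2 fold change of sgNPM1A over sgNeg for each tested gene of the 6 lists, filled where called. Cofactor lists lie mostly near 0, with TLE3 at -1.03 and TBL1X at 1.16 as the outermost of the first, whereas 8 of the 11 RUNX1 target genes lie to the right as called genes.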

How the data were processed

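The authors mapped read pairs to hg38 with STAR and Samtools and deposited unnormalized counts of each Ensembl gene in 4 libraries; the counting program, annotation release and strand setting are not given in the sources used here. Of 58037 rows, 55603 were matched to a symbol by Ensembl identifier. Groups came from the sample titles. Genes were tested with edgeR 4.0.16 in R 4.3.3 (filterByExpr with a minimum count of 10, TMM, robust quasi-likelihood F test, two-sided), with DESeq2 1.42.0 and limma 3.58.1 as alternatives. Positions are those of RefSeq on GRCh38; exonic lengths are the union of GENCODE exons or that of the MANE Select transcript, the latter added after the data were examined. The members and gene lists were chosen with earlier results of these data known. The text names all 10 members, list genes that were called or, in long lists, those with large changes, NPM1, and transcripts that overlap a member; KDM1A, MYC, BCL2, IGF1R, CSF2, IL3 and the single markers were named after their values were seen, and 1 marker is not reported here by name. Nothing but the number in the titles links same-numbered libraries, and across genes the departure from the group mean in libraries 1 and 2 of one group correlated with that of the other group at -0.13, and at -0.52 over genes above 10 CPM, where all 8 tested members lie (genes are no replicates). The study calls the libraries biological replicates, and nothing says that they were separate cultures. The edgeR p-values rest on the spread between these libraries, with the dispersion of each gene moderated by that of all genes tested. On simulated counts for 15718 genes with 200 changed by 1 on the log2 scale, edgeR found 165 with 5 false calls. Every simulated gene had the same dispersion, and far fewer genes changed than were called in the data. These rates therefore do not carry over to the data, nor to smaller changes such as those of RUNX1, RUNX3 and MYB.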

Additional observations from a re-analysis of the deposited data

How the results depend on the processing

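With no fold threshold 2 members (RUNX1 and MYB) were also called higher. With 1 library left out, where the remaining library of a group is assumed to vary like the others, the members called higher ranged from 0 to 2 and those called lower from 1 to 2; the cause was not tested. Genes called over the whole table then ranged from 1224 to 1574 higher and from 1166 to 1571 lower. CBFB changed sign, to -0.0838 without sgNeg replicate 2 and to -0.0556 without sgNPM1A replicate 2, within a range up to 0.208. The share of RUNX1 differed by 16.8 percentage points in raw counts and by 15.3 with MANE Select lengths, that of RUNX2 by -15.2 and -14.0, and that of RUNX3 turned to -1.53 and -1.30, since the lengths weight the genes differently; with 1 library left out they lay between 9.14 and 12.6, -13.7 and -11.8, and 0.844 and 2.99. The replicate block, which joins libraries by a number alone, gave 1637 genes higher and 1604 lower and 0 and 2 members, and changed no call of a member. Same-numbered libraries deviated in opposite directions, and a crossed block, added after the data were examined, gave 1955 and 1918 genes and 0 and 2 members. Of 120 comparisons of a member's fold change with an alternative 112 kept direction and side of the threshold, and of 180 counts in the gene lists 163 stayed within 1.5 times. The settings with no fold threshold and with the unadjusted p reuse the main fold change, so its direction there was fixed in advance. With no fold threshold RUNX1 and MYB were counted as having changed side, at an unchanged fold change. DESeq2, limma-trend, RLE, library size only, upper quartile, both filters and the unadjusted p each left 2 members lower and 0 higher. RUNX1T1 and GFI1B are too low at this depth for a comparison.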

Other observations

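Transcripts that the annotation places across the members were counted separately in the table. RUNX2 is crossed on the opposite strand by SUPT3H, which codes for a subunit of SAGA-type acetyltransferase complexes, and by a long noncoding RNA without a symbol, ENSG00000271857; neither shares an exonic base with RUNX2. SUPT3H had 74 and 65 counts with sgNeg and 54 and 39 counts with sgNPM1A, and its log2 fold change was -0.70 (edgeR adjusted p = 0.0464). ENSG00000271857 had 152 and 223 counts with sgNeg and 88 and 63 counts with sgNPM1A, and its log2 fold change was -1.43 (edgeR adjusted p = 0.000643). Both were thus called lower beside RUNX2, which had 2015 and 1903 counts with sgNeg and 1065 and 930 counts with sgNPM1A. Reads in the separate exons can be assigned by position. Reads outside them cannot be assigned to a strand, since the strand setting is not given in the sources used here. Whether such reads entered the counts was not tested. MYB-AS1 had at most 7 counts in any library, RUNX3-AS1 at most 6 and RUNX2-AS1 0. The antisense gene that covers 8.38% of the exonic bases of CBFA2T3 had between 24 and 33 counts, few beside the counts of CBFA2T3. GFI1B differs, since TSC1 on the opposite strand covers 5.72% of its exonic bases. TSC1 had between 923 and 1037 counts, and GFI1B between 2 and 4. With the strand setting not given, the strand from which the GFI1B counts came is not known. Of the 50-base words of RUNX2, RUNX3, CBFB and GFI1 transcripts 0 occur in other genes, and for the other members the share was between 0.209% and 5.91%.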
